A study of Oryctolagus cuniculus with 24 samples.

Results

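The TNF superfamily ligand genes TNF, LTB, CD70 and TNFSF13 and the receptor gene TNFRSF21 were followed in rabbit peripheral blood mononuclear cells (PBMCs), the lymphocytes and monocytes of blood. They were chosen by gene symbol and are 5 of the 28870 genes measured, carried by 15 of the 42089 probes of the array. PBMCs were separated on a density gradient from the blood of 4 adult females of the New Zealand White rabbit breed, called here by their numbers 1, 2, 4 and 5. The cells of each animal were cultured with 1 µg/mL of LPS, with a mixture of PMA at 10 ng/mL and ionomycin at 1 µg/mL (PMA-Ionomycin), or with a buffer free of stimulating agents (mock), and were harvested after 4 h (T4) or 24 h (T24). Each of the 6 groups therefore held 4 samples, and each of the 24 samples was hybridised to a single-colour array of its own. All cultures, the mock-stimulated ones included, held heat-inactivated fetal bovine serum. LPS is the lipopolysaccharide of Gram-negative bacteria, which myeloid cells sense through TLR4, whereas PMA activates protein kinase C and ionomycin lets calcium into the cell, so that both act downstream of surface receptors.

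TNF superfamily ligands are mostly trimeric membrane proteins, some of which are cut from the cell surface, and they signal through receptors of the TNF receptor superfamily by way of TRAF adaptors or death domains. TNF is the inflammatory cytokine made early by activated monocytes and T cells. LTB anchors lymphotoxin to the membrane and acts through LTBR, CD70 is the ligand of CD27 on activated lymphocytes and dendritic cells, and TNFSF13 (APRIL) is a myeloid product that binds TNFRSF13B and TNFRSF17 on B lineage cells. TNFRSF21 (DR6) is a receptor with a death domain.

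The probes set what each value measures, and the sequences are shown for that reason. TNF was measured by 5 overlapping probes at 2 neighbouring sites, within chr12:20401867-20402008 (oryCun2, plus strand), and LTB by a single probe on the minus strand at chr12:20405946-20406005. Only 3937 bases lie between the TNF and LTB probes, and the probe of LTA, the third ligand gene of this locus, ends 4270 bases before the first TNF probe. TNFSF13 was measured by 4 probes shifted by single bases within chr19:11615978-11616037 (minus strand), and TNFRSF21 by 4 such probes within chr12:36575202-36575264 (minus strand). The files give no chromosome position for the single CD70 probe. The stretches below run 5′ to 3′ in the sense of the transcript. Capitals mark the letters AATAAA in TNF and ATTAAA in TNFSF13, the common poly(A) signal and its usual variant, and the stop codon TGA that ends the CD70 probe in the only frame open up to its last codon. AATAAA stands in 5.00% of the 42089 probes and ATTAAA in 2.71%, read on the printed strand. The LTB and TNFRSF21 probes are shown whole and hold at least 1 frame without a stop.
TNF: tcagtggcgagaAATAAAgactccttaaaa
TNFSF13: gacgtagtggacATTAAAgagctagaatgt
CD70: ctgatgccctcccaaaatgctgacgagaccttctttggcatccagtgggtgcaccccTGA
LTB: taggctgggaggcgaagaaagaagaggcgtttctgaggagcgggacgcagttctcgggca
TNFRSF21: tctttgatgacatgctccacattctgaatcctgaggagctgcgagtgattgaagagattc

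Levels are given as log2 of the median spot signal minus the median over all non-control spots of the same array. Thus 0 is the middle of the array and 1 unit is a doubling of the signal. Background was not subtracted, so for genes near 0 a doubling of the signal is not a doubling of the transcript. Levels of different genes come from different probes and are not comparable. Between 51.4% and 62.3% of spots were well above background on each array, and the 5 genes passed this mark on each of the 24 arrays. None of their spots was saturated or marked as an outlier. Genes whose limma p, adjusted over all 28870 genes, was under 0.05 are called differentially expressed (DE). In such bulk samples, fewer cells of a type and less RNA per cell cannot be told apart. The marker genes set for PBMC types were found in part: 9 of 15 for monocytes, 7 of 10 for B cells and 9 of 12 for T cells, and each of the 9 monocyte and 7 B cell markers was above background on at least 1 mock array at T4. CD3D, CD3E and CD3G matched no probe by name, and CD4 and CD28 were not above background on any mock array at T4.

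The 5 genes fell into different patterns after stimulation. After PMA-Ionomycin stimulation CD70 was 38.4-fold higher and LTB 30.7-fold lower than mock at T24, TNFSF13 was 7.95-fold lower and TNF 6.03-fold higher, while TNFRSF21 was DE at T4 only among these 2 comparisons. After LPS stimulation TNF had the widest difference of the 5 genes from mock at both times. It was not DE at either in the fit that leaves out the pairing by rabbit, and DE at both with the rabbit as a block. Time in culture alone moved TNFSF13 further than any stimulation did, 27.7-fold up in mock-stimulated PBMCs from T4 to T24. LPS and PMA-Ionomycin were compared with the same mock samples, so these comparisons share controls.

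**Figure D1:**
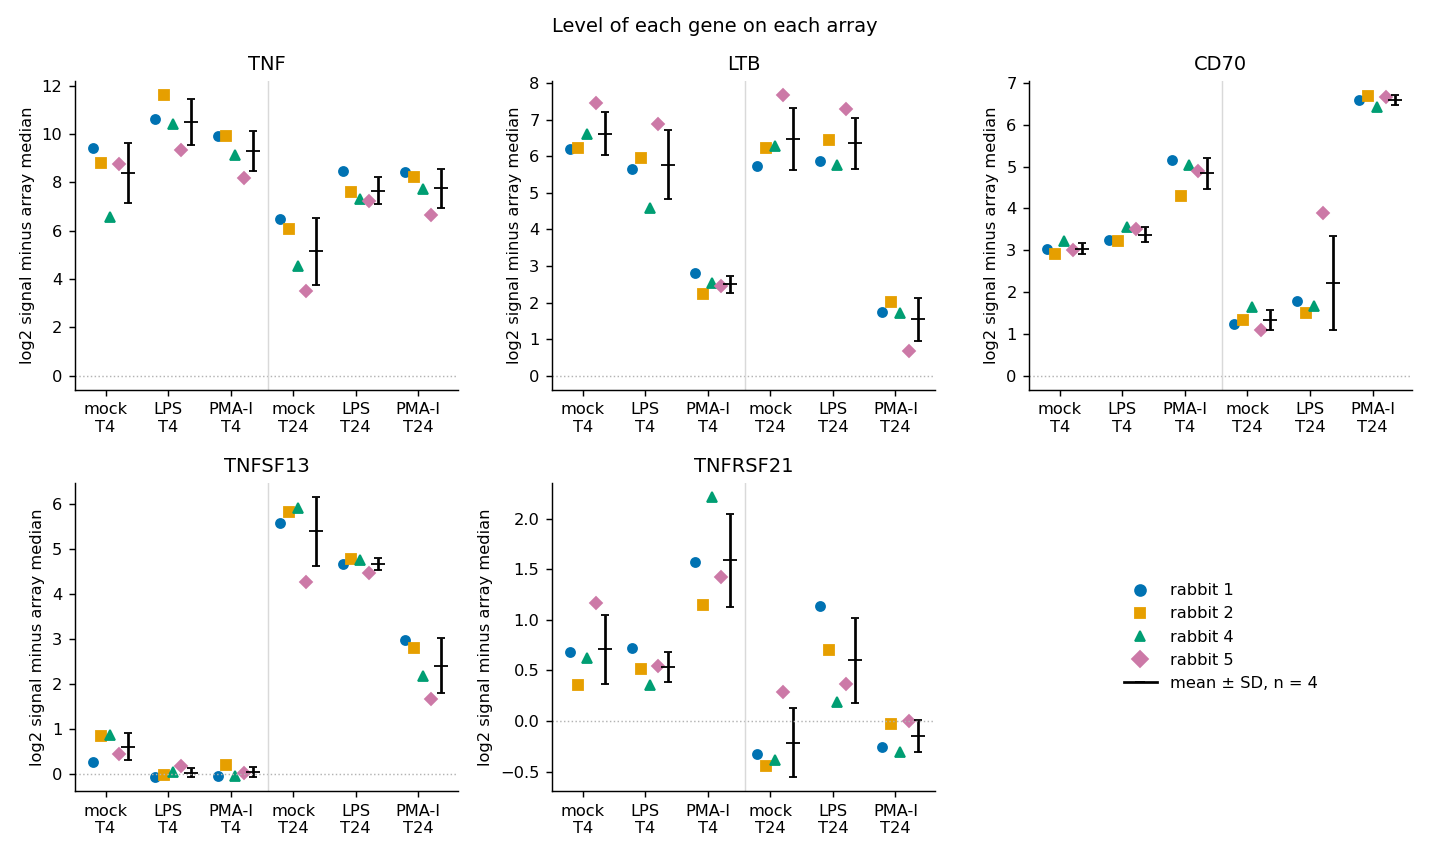
Level of TNF, LTB, CD70, TNFSF13 and TNFRSF21 on each of the 24 arrays, as log2 signal minus the array median (vertical axis, a scale of its own in each panel), by stimulation and time (horizontal axis; PMA-I is PMA-Ionomycin). Symbols are the 4 rabbits and bars the mean ± SD. LTB lies between 0.68 and 2.80 in all 8 PMA-Ionomycin samples and at 4.59 or above in the other 16.

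TNF was high in mock-stimulated PBMCs already at T4, with levels of 9.42, 8.79, 6.58 and 8.77 in rabbits 1, 2, 4 and 5. After LPS stimulation at T4 they were 10.61, 11.61, 10.43 and 9.32, each above the mock sample of the same rabbit, but the lowest LPS sample (rabbit 5) stood below the highest mock sample (rabbit 1). The mean difference was 2.10 ± 0.64 (SE), 4.29-fold, with a limma adjusted p of 0.103, and 0.0162 with the rabbit as a block. After PMA-Ionomycin stimulation at T4 TNF levels were 9.92, 9.93, 9.15 and 8.18. They overlapped those of mock and were higher in 3 of 4 rabbits, with a difference of 0.90 ± 0.64 (adjusted p = 0.409), which was 0.35 without rabbit 4 and 1.40 without rabbit 5.

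By T24 TNF had fallen in mock-stimulated PBMCs to 6.49, 6.08, 4.53 and 3.50, a decrease of 9.44-fold from T4 (adjusted p = 0.000931). The log2 change within rabbits 1, 2, 4 and 5 was -2.92, -2.71, -2.05 and -5.27, widest in rabbit 5. LPS samples at T24 stood at 8.46, 7.60, 7.31 and 7.22, all above the 4 mock samples. The difference was 2.50 ± 0.64, or 5.65-fold (95% interval 1.18 to 3.82 on the log2 scale). Its adjusted p was 0.0541, just outside the threshold, and 0.00106 with the rabbit as a block. PMA-Ionomycin samples at T24 had TNF levels of 8.41, 8.20, 7.73 and 6.64, again above every mock sample, and TNF was DE with a difference of 2.59 ± 0.64 (adjusted p = 0.00222). The LPS and PMA-Ionomycin samples at T24 differed by 0.10 (95% interval -1.22 to 1.41, adjusted p = 0.949). At T4 PMA-Ionomycin samples were 1.20 below LPS samples, lower in 4 of 4 rabbits (adjusted p = 0.192, and 0.0302 with the rabbit as a block).

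The SD of TNF over the 4 rabbits was 1.24 in mock at T4 and 1.39 in mock at T24, and between 0.56 and 0.94 in the stimulated groups. Taken within rabbits, the differences at T24 ran from 1.52 to 3.72 with LPS and from 1.92 to 3.20 with PMA-Ionomycin. From T4 to T24 TNF fell by 2.84 in LPS samples (adjusted p = 0.00154) and by 1.55 in PMA-Ionomycin samples (adjusted p = 0.0652, and 0.0043 with the rabbit as a block). The change in the PMA-Ionomycin effect from T4 to T24 was 1.69 ± 0.90 (adjusted p = 0.219, and 0.0345 with the rabbit as a block), and without rabbit 5 it was 1.01 (adjusted p = 0.516). In the order of mean levels, from mock T24 through LPS T24, PMA-Ionomycin T24, mock T4 and PMA-Ionomycin T4 to LPS T4, no neighbouring groups differed beyond the threshold. With the rabbit as a block the steps from mock T24 to LPS T24 and from PMA-Ionomycin T4 to LPS T4 were DE, as given above. The slides carried arrays of all 6 groups, but within a slide the arrays compared came mostly from different rabbits, here and for the other genes. Within the 3 slides the LPS difference was 2.84, 2.43 and 1.17 at T4 and 4.45, 0.92 and 1.23 at T24. With PMA-Ionomycin the within-slide TNF differences were 0.77, 0.18 and 1.12 at T4 and 4.39, 1.71 and 1.10 at T24, where the fit with the slide as a block gave 2.65 (adjusted p = 0.00381).

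LTB, the membrane anchor of lymphotoxin, was high in all mock and LPS samples. In mock at T4 it stood at 6.20, 6.22, 6.60 and 7.45 in rabbits 1, 2, 4 and 5, and after PMA-Ionomycin stimulation at 2.80, 2.22, 2.53 and 2.44. The groups were far apart, with a decrease of 17.4-fold (log2 difference -4.12 ± 0.44, adjusted p = 1.98e-07). At T24 mock samples stood at 5.73, 6.22, 6.29 and 7.68 and PMA-Ionomycin samples at 1.73, 2.02, 1.72 and 0.68, a decrease of 30.7-fold (log2 difference -4.94 ± 0.44, adjusted p = 3.7e-09). Rabbit 5 had the highest LTB level of the 4 rabbits in mock and LPS samples at both times, and the lowest in PMA-Ionomycin samples at T24. The log2 differences at T24 within rabbits 1, 2, 4 and 5 were -4.0, -4.2, -4.6 and -7.0, so rabbit 5 widened the mean. LPS samples stood at 5.66, 5.95, 4.59 and 6.88 at T4 and at 5.89, 6.46, 5.77 and 7.30 at T24. They overlapped mock at both times, with differences of -0.84 (adjusted p = 0.413) and -0.13 (adjusted p = 0.99). Without rabbit 4 the difference at T4 was -0.46.

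PMA-Ionomycin samples were also below LPS samples in LTB, with log2 differences of -3.27 at T4 (adjusted p = 4.15e-06) and -4.81 at T24 (adjusted p = 4.88e-09). LTB did not change beyond the threshold with time in mock (-0.14, adjusted p = 0.885). In the order of the 6 group levels the only step called was that between PMA-Ionomycin T4 and LPS T4. Within the 3 slides the PMA-Ionomycin difference was -5.07, -3.95 and -3.42 at T4 and -5.25, -3.70 and -5.02 at T24, and with the slide as a block it was -4.20 and -4.87, both DE.

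Of the 7 B cell markers found, 4 fell and 1 rose after PMA-Ionomycin stimulation at T4, with a median difference of -1.70 against 0.05 over all genes, and 3 fell and 1 rose at T24, with a median of -0.29 against 0.03. Of all genes 9.35% were lower and 13.5% higher at T4, and 11.5% and 22.1% at T24. CD79B, a chain of the B cell receptor complex, differed from mock by -3.93 at T4 (adjusted p = 5.47e-06) and its difference at T24 was -0.29. MS4A1 (CD20) fell at both times, by 1.70 and 2.63. The mean level of the 7 markers ran from 3.37 to 3.99 in mock at T4, from 1.81 to 2.37 after PMA-Ionomycin at T4, from 2.91 to 4.50 in mock at T24 and from 2.86 to 3.29 after PMA-Ionomycin at T24. At T24 the mean B cell marker levels of PMA-Ionomycin samples overlapped those of mock and LPS samples, and their LTB levels lay below all of them, as the plot of marker levels shows. That mean joins markers that moved apart at T24, such as BLK at 1.75 and BANK1 at -1.61 against mock. The part of these markers in the LTB result was not tested.

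CD70, the ligand of CD27, rose with PMA-Ionomycin at both times. Mock samples at T4 stood at 3.03, 2.90, 3.21 and 2.99 and PMA-Ionomycin samples at 5.15, 4.30, 5.03 and 4.89. The groups did not overlap, and CD70 rose 3.50-fold (log2 difference 1.81 ± 0.33, adjusted p = 0.000175). At T24 mock samples had fallen to 1.23, 1.34, 1.65 and 1.08, whereas PMA-Ionomycin samples had risen to 6.59, 6.68, 6.42 and 6.67. The difference was 5.26 ± 0.33, or 38.4-fold (adjusted p = 1.27e-11). Thus the PMA-Ionomycin effect was 3.46 ± 0.46 larger at T24 than at T4 on the log2 scale, larger in 4 of 4 rabbits (adjusted p = 5.09e-06). Both sides of the comparison moved: CD70 fell by 1.71 in mock (adjusted p = 0.00071) and rose by 1.75 in PMA-Ionomycin samples (adjusted p = 0.000146) from T4 to T24.

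With LPS, CD70 stood at 3.23, 3.22, 3.55 and 3.50 at T4. These samples lay just above the highest mock sample, with a difference of 0.34 ± 0.33 that was positive in 4 of 4 rabbits (0.20 to 0.50) and not DE (adjusted p = 0.677). At T24 it stood at 1.78, 1.50, 1.66 and 3.88, where rabbit 5 was more than 2 units above the other rabbits. The mean difference from mock was 0.88 (adjusted p = 0.259), and it was 0.24 without rabbit 5. PMA-Ionomycin samples exceeded LPS samples by 1.47 at T4 (adjusted p = 0.00127) and by 4.38 at T24 (adjusted p = 2.01e-10). The steps from LPS T4 to PMA-Ionomycin T4 and from there to PMA-Ionomycin T24 were the 2 called in the order of levels, whose lower end was mock T24, LPS T24, mock T4 and LPS T4. Without rabbit 5, CD70 in LPS samples at T24 was also below mock at T4, by 1.40 (log2 difference -1.40, adjusted p = 5.69e-05), against -0.83 with all rabbits (adjusted p = 0.101). Within slides the PMA-Ionomycin difference was 1.67, 1.77 and 2.24 at T4 and 5.23, 5.45 and 5.20 at T24, and with the slide as a block 1.88 and 5.25.

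T cell and NK cell markers were set beside CD70. After PMA-Ionomycin 1 of 9 T cell markers found rose at T4 (CD28, from below background). At T24 1 rose, CD5 by 1.08, and 2 fell, CD247 and CD4 (to below background). Of all genes 13.5% were higher and 9.35% lower at T4, and 22.1% and 11.5% at T24. The T cell marker medians were 0.09 and 0.11 against 0.05 and 0.03 over all genes. The mean level of the T cell markers ran from 0.24 to 0.72 in mock at T24 and from 0.39 to 0.57 after PMA-Ionomycin, so the groups overlapped. Only 2 of 7 NK cell markers were found, KLRK1 and PRF1 (perforin). PRF1 fell by 0.76 at T4 and rose by 0.96 at T24, when KLRK1 rose from below background. The mean level of both ran from -0.55 to 0.12 in mock and from 0.49 to 1.00 after PMA-Ionomycin at T24. The part of these markers in the CD70 result was not tested.

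**Figure D2:**
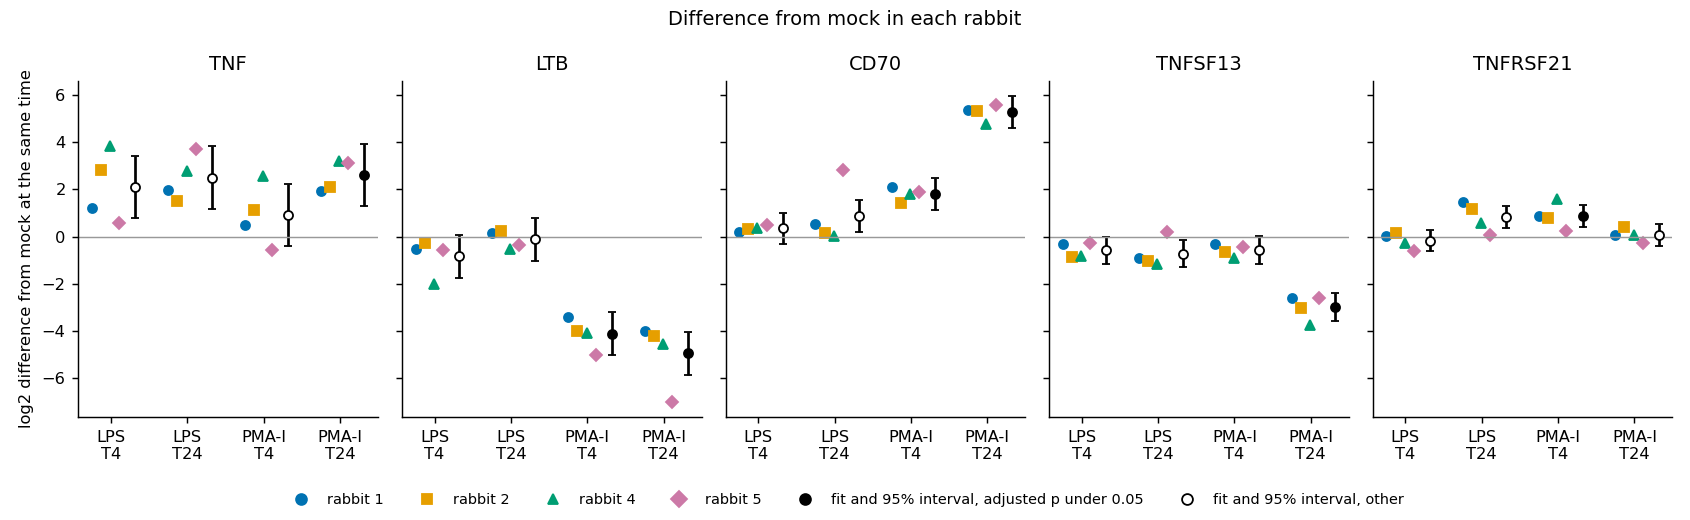
Log2 difference from the mock sample of the same rabbit and time (vertical axis) for each gene, stimulation and time. Coloured symbols are the 4 rabbits, and black symbols the fitted difference with its 95% interval, filled where the adjusted p was under 0.05. The CD70 differences after PMA-Ionomycin lie between 1.40 and 2.11 at T4 and between 4.77 and 5.59 at T24.

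TNFSF13, which encodes APRIL, was near the middle of the array at T4 and rose with time in every group. Mock samples stood at 0.27, 0.85, 0.86 and 0.45 at T4 and at 5.57, 5.83, 5.93 and 4.27 at T24, a difference of 4.79 ± 0.28 (adjusted p = 6.02e-11). LPS samples rose from -0.07, -0.03, 0.03 and 0.16 to 4.67, 4.78, 4.76 and 4.48, a change of 4.65 (adjusted p = 8.05e-11). PMA-Ionomycin samples rose less, from -0.05, 0.19, -0.04 and 0.02 to 2.98, 2.81, 2.19 and 1.66, a change of 2.38 (adjusted p = 2.95e-07). No sample of T24 was as low as any sample of T4.

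Against mock, TNFSF13 was 7.95-fold lower after PMA-Ionomycin stimulation at T24 (log2 difference -2.99 ± 0.28, adjusted p = 7.62e-09), and the 4 PMA-Ionomycin samples lay below all mock and LPS samples of T24. At T4 its difference was -0.58 with PMA-Ionomycin (adjusted p = 0.167) and -0.58 with LPS (adjusted p = 0.354), lower in 4 of 4 rabbits in both and with no overlap with mock. The PMA-Ionomycin difference at T4 was DE with the processed signal (-1.10), with only the arrays compared (-0.58) and without rabbit 5 (-0.62, adjusted p = 0.0233). The PMA-Ionomycin effect was lower by 2.41 at T24 than at T4 (log2 change -2.41 ± 0.39, adjusted p = 6.35e-05). With LPS at T24 the difference was -0.73 (adjusted p = 0.283). It was lower in rabbits 1, 2 and 4 and higher by 0.21 in rabbit 5, and without rabbit 5 it was -1.04 (adjusted p = 0.00554). Within slides the PMA-Ionomycin difference at T24 was -2.12, -2.76 and -3.91, and -2.99 with the slide as a block. In the order of levels LPS T4, PMA-Ionomycin T4 and mock T4 did not differ beyond the threshold from their neighbours, and the steps up to PMA-Ionomycin T24 and on to LPS T24 were called.

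Of the 9 monocyte markers, 5 rose from T4 to T24 in mock and none fell, with a median difference of 1.37 against -0.06 over all genes. After PMA-Ionomycin stimulation 4 of 9 fell at T4 and 7 of 9 at T24, with medians of -0.82 and -2.81, and none rose. Of all genes 7.41% were higher and 5.13% lower in mock over time, and 9.35% and 11.5% were lower after PMA-Ionomycin at T4 and T24. CSF1R, the receptor of the monocyte growth factor, differed by 2.92 from T4 to T24 in mock and by -3.29 after PMA-Ionomycin at T24, and CD14, the LPS co-receptor, by 1.37 and -3.27. The mean level of the 9 markers ran from 2.53 to 3.63 in mock at T4, from 3.70 to 4.97 in mock at T24, from 1.95 to 2.39 after PMA-Ionomycin at T4 and from 1.46 to 2.23 after PMA-Ionomycin at T24, where VCAN was not above background on any array. With LPS it ran from 2.07 to 2.66 at T4, where 2 of 9 fell, and from 3.61 to 4.82 at T24, where 1 fell, beside 1.03% and 1.22% of all genes called. In PMA-Ionomycin samples TNFSF13 rose from T4 to T24, and the mean marker level was 2.25 at T4 and 1.71 at T24. Of 6 neutrophil markers found of 9 listed, 4 rose and none fell from T4 to T24 in mock (median 0.86), and 3 fell after PMA-Ionomycin at T24 (median -0.83). Their mean level was 1.66 in mock at T4, 2.86 in mock at T24 and 1.60 after PMA-Ionomycin at T24, where LTF and CAMP were not above background on any array. The 5 platelet markers found of 8 listed all fell in mock over time (median -1.79) and after PMA-Ionomycin at T4 (median -1.60). After PMA-Ionomycin at T24 none fell and 2 rose, ITGB3 by 0.84 and TUBB1 by 1.21, beside 22.1% of all genes higher. TNFSF13 stood 1.80 higher after PMA-Ionomycin at T24 than in mock at T4 (adjusted p = 1.39e-05). The mean monocyte marker level ran from 1.46 to 2.23 in the former group and from 2.53 to 3.63 in the latter. The part of these markers in the TNFSF13 result was not tested.

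**Figure D3:**
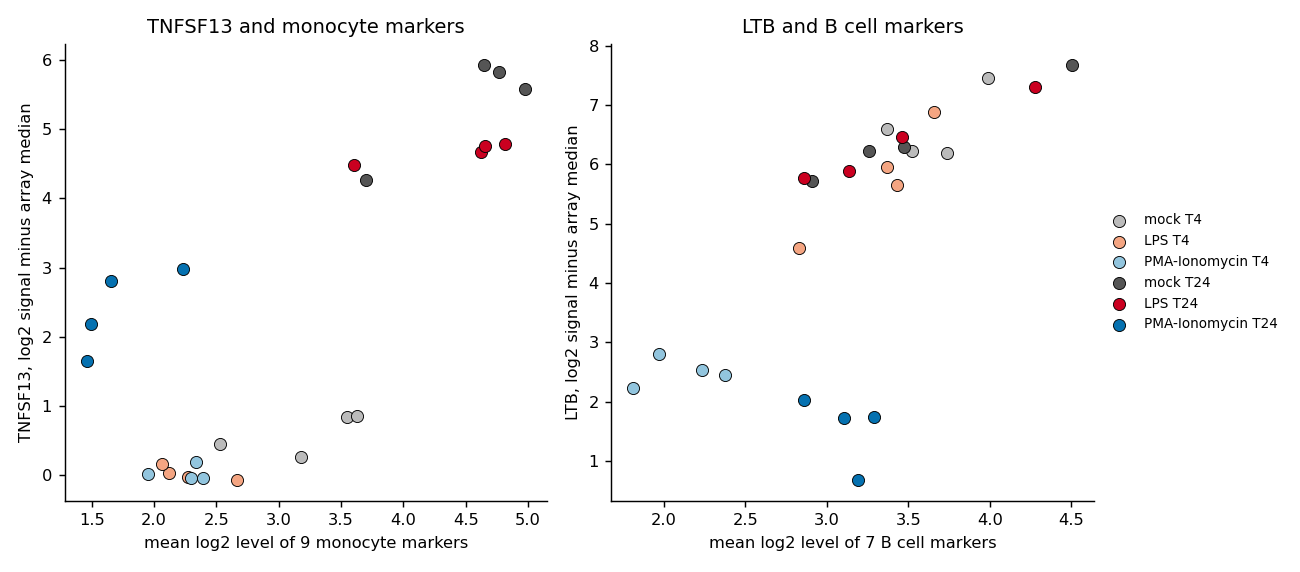
Level of TNFSF13 against the mean level of 9 monocyte markers (left) and of LTB against the mean level of 7 B cell markers (right), both as log2 signal minus the array median, with a point for each of the 24 arrays coloured by group. Mock and LPS samples of T24 lie at the upper right of the left panel, and PMA-Ionomycin samples of T24 lie at the bottom of the right panel with marker levels from 2.86 to 3.29.

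TNFRSF21 encodes the death domain receptor DR6. Mock samples at T4 stood at 0.68, 0.35, 0.63 and 1.17, and PMA-Ionomycin samples at 1.57, 1.14, 2.22 and 1.42. The groups overlapped slightly, since rabbit 5 was high in mock, but TNFRSF21 was higher in 4 of 4 rabbits and DE, 1.84-fold up (log2 difference 0.88 ± 0.22, adjusted p = 0.00439). Without rabbit 4, whose difference was 1.59, it was 0.64 (adjusted p = 0.0739). At T24 the PMA-Ionomycin samples, at -0.26, -0.03, -0.30 and -0.00, were no longer apart from mock, at -0.33, -0.44, -0.38 and 0.29 (difference 0.07, adjusted p = 0.901), and its sign changed with the scaling. The change of this effect with time was -0.81 ± 0.31 (adjusted p = 0.068).

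LPS samples stood at 0.72, 0.52, 0.35 and 0.54 in TNFRSF21 at T4, overlapping mock (difference -0.17, adjusted p = 0.761). At T24 they stood at 1.14, 0.71, 0.18 and 0.37, higher than mock in 4 of 4 rabbits by 0.82 ± 0.22 (adjusted p = 0.0752), with the mock sample of rabbit 5 among them. With the slide as a block this difference was 0.88 (adjusted p = 0.0475), with the processed signal 1.46, also DE, and without rabbit 5 1.06 (adjusted p = 0.0238), and within the 3 slides it was 1.19, 0.87 and 0.63. TNFRSF21 fell in mock from T4 to T24 by 0.92 (adjusted p = 0.00566) and in PMA-Ionomycin samples by 1.74 (adjusted p = 9.97e-07), whereas LPS samples differed by 0.07 between the times (adjusted p = 0.814). PMA-Ionomycin samples were above LPS samples at T4 by 1.05 (adjusted p = 0.000734) and below them at T24 (-0.75, adjusted p = 0.00921), where the difference was -0.53 without rabbit 1 (adjusted p = 0.166). From low to high the groups stood as mock T24, PMA-Ionomycin T24, LPS T4, LPS T24, mock T4 and PMA-Ionomycin T4, with called steps between PMA-Ionomycin T24 and LPS T4 and between mock T4 and PMA-Ionomycin T4. The first of these steps was lost without rabbit 1 (adjusted p = 0.0959) and the other without rabbit 4, as given above.

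The probes of a gene gave nearly the same differences from mock. For TNF the 5 probes ran from 1.98 to 2.21 with LPS at T4 and from 2.30 to 2.66 at T24, where 3 of the 5 passed the threshold alone, all at the site farther from the 3′ end. The 4 TNFSF13 probes ran from -3.09 to -2.94 with PMA-Ionomycin at T24, and all were DE. All 4 TNFRSF21 probes were DE with PMA-Ionomycin at T4 (0.80 to 0.95), but at T24 they ran from -0.22 to 0.38 and did not share a sign. Such probes overlap in sequence and are not independent measurements.

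**Figure D4:**
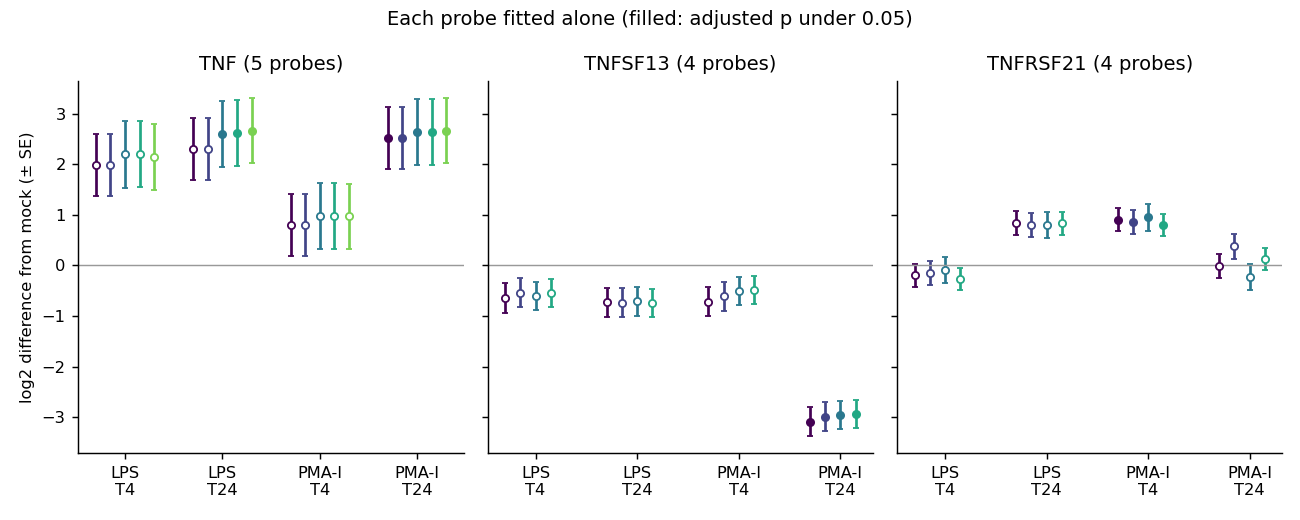
Log2 difference from mock ± SE (vertical axis) for each single probe of TNF, TNFSF13 and TNFRSF21, fitted alone, by stimulation and time; filled points had an adjusted p under 0.05. The TNF probes span 2.30 to 2.66 with LPS at T24 and the TNFRSF21 probes -0.22 to 0.38 with PMA-Ionomycin at T24.

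Counted over the 5 genes, none was DE after LPS stimulation at T4 or T24 by limma, where 1.03% and 1.22% of all genes were called. The p before adjustment was under 0.05 for TNF and TNFSF13 at T4 (2 of 5) and for all but LTB at T24 (4 of 5). With the rabbit as a block TNF alone was DE at each time. After PMA-Ionomycin stimulation 3 of 5 were DE at T4 (2 higher and 1 lower) and 4 of 5 at T24 (2 higher and 2 lower), beside 22.8% and 33.6% of all genes (13.5% higher and 9.35% lower at T4, 22.1% higher and 11.5% lower at T24). The effect changed with time for 2 of 5 with PMA-Ionomycin, beside 22.5% of all genes, and for none with LPS (1 of 5 at an unadjusted p under 0.05), beside 1.95%. From T4 to T24 in mock 1 of 5 rose and 3 fell, beside 12.5% of all genes (7.41% higher, 5.13% lower), and PMA-Ionomycin and LPS samples differed in 3 of 5 at T4 and 4 of 5 at T24, beside 26.7% and 36.1%. In PMA-Ionomycin samples 3 of 5 were DE between the times and in LPS samples also 3 of 5, beside 33.7% and 37.6%. One of the latter was CD70, which fell by 1.17 (adjusted p = 0.00858) and by 0.93 to 1.07 without rabbit 1, 2 or 4, where it missed the threshold (adjusted p = 0.0695, 0.0754 and 0.108). The order of levels also used PMA-Ionomycin T24 against LPS T4 and against mock T4, with 42.7% and 32.1% of all genes called, and LPS T24 against mock T4, with 14.0%.

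Among the other ligands of the family, FASLG and TNFSF14 rose with PMA-Ionomycin. Of the 18 ligands listed, 16 were found by name. None was called by limma after LPS at T4 or T24, where 1.03% and 1.22% of all genes were called (before adjustment 2 and 4 of 16 had p under 0.05). After PMA-Ionomycin 8 of 16 were DE at T4 (5 higher, 3 lower) and 9 at T24 (6 higher, 3 lower), beside 22.8% and 33.6% of all genes and with medians of 0.07 and 0.03 against 0.05 and 0.03 over all genes. FASLG, which induces death through FAS, rose 11.3-fold at T4 and 16.2-fold at T24 (adjusted p = 1.8e-12 and 1.22e-13). TNFSF14 (LIGHT), which shares the receptor LTBR with lymphotoxin, rose 5.34-fold and 2.76-fold. TNFSF8, the ligand of CD30, fell at both times, and since it was not well above background in PMA-Ionomycin samples it was at least 1.77-fold lower at T4 and at least 2.66-fold lower at T24. TNFSF10 (TRAIL) was at least 2.27-fold lower at T4. Here "at least" sets the dimmer group at the lowest signal well above background on its arrays.

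LTA, the neighbour of TNF and LTB, encodes the soluble lymphotoxin subunit. Its difference after PMA-Ionomycin was -0.33 at T4 (adjusted p = 0.168) and 0.65 at T24, where it was DE (adjusted p = 0.00215), and after LPS 0.14 and -0.15 (adjusted p = 0.731 and 0.882). TNFSF13B (BAFF), which shares receptors with TNFSF13, was not called in any comparison with mock, and at T4 most of its probes were well above background on 2 of 4 mock arrays and on 0 of 4 LPS or PMA-Ionomycin arrays, so no difference is given there. At T24 its difference was 0.37 after LPS and -0.38 after PMA-Ionomycin.

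**Figure D5:**
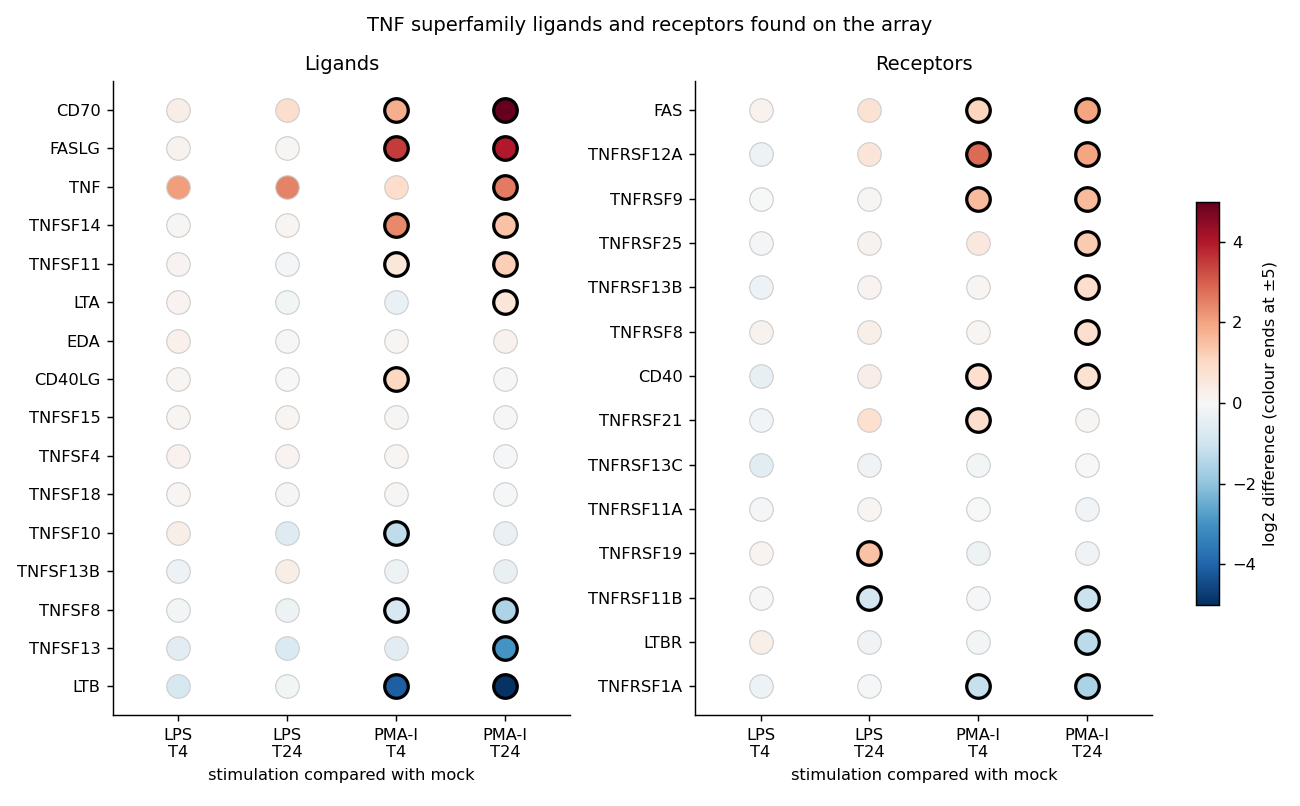
Log2 difference from mock (colour) for the 16 ligands and 14 receptors of the TNF superfamily found on the array (rows, ordered by the difference after PMA-Ionomycin at T24), with a column for each stimulation and time. Thick black rings mark an adjusted p under 0.05; LPS columns hold 2 rings in all, and the PMA-Ionomycin columns 14 at T4 and 19 at T24.

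Of the receptors of the ligands described, TNFRSF1A, LTBR and TNFRSF13B were found, whereas TNFRSF1B, CD27 and TNFRSF17 matched no probe by name. TNFRSF1A, the TNF receptor with a death domain, fell after PMA-Ionomycin at T4 by 1.16 (adjusted p = 0.000449) and at T24 by 1.56 (adjusted p = 6.38e-06). LTBR differed by -0.12 at T4 (adjusted p = 0.902) and fell by 1.36 at T24 (adjusted p = 0.00211). TNFRSF13B (TACI) rose by 0.84 at T24 (adjusted p = 0.00738), with a difference of 0.11 at T4, and TNFRSF13C, the receptor of the related ligand BAFF, had differences of -0.13 and -0.03. After LPS these 4 receptors had differences between -0.57 and 0.28, none of them called.

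Of 29 receptors listed, 14 were found. None was DE by limma after LPS at T4 (0 with p under 0.05 before adjustment) and 2 were at T24 (1 higher, 1 lower): TNFRSF19 (TROY), 2.72-fold higher (adjusted p = 0.000731) than mock samples in which 2 of 4 arrays were well above background, and TNFRSF11B, the soluble receptor osteoprotegerin, which was lower (adjusted p = 0.0334) and was named after its value was seen. Most TNFRSF11B probes were well above background on 3 of 4 mock and 0 of 4 LPS arrays at T24, and any of them on 4 and 3, so the size of its fall is not given. Neither was DE with only the arrays compared, and TNFRSF11B was not DE without rabbit 1, 2 or 4 or with the slide as a block. After PMA-Ionomycin 6 of 14 were DE at T4 (5 higher, 1 lower) and 10 at T24 (7 higher, 3 lower), with medians of 0.10 and 0.42 against 0.05 and 0.03. TNFRSF12A, the receptor of TWEAK, rose 7.19-fold at T4 and 3.91-fold at T24, TNFRSF9 (4-1BB) by 1.60 and 1.59 on the log2 scale, and FAS 2.17-fold and 3.96-fold. TNFRSF25 (DR3) rose 2.49-fold at T24. Of the 30 ligands and receptors found, PMA-Ionomycin changed 14 at T4 and 19 at T24, beside 22.8% and 33.6% of all genes, and LPS 0 and 2, beside 1.03% and 1.22%.

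Downstream of the receptors, 22 of 32 adaptors and regulators were found. After LPS 3 of 22 fell at T4 and none rose: TRADD, the adaptor of TNFRSF1A, by 0.95 (adjusted p = 0.0484), the kinase RIPK1 by 0.79 (adjusted p = 0.0337) and MAP3K14 (NIK), the kinase of the alternative NF-kB pathway, by 0.78 (adjusted p = 0.0383). Over all genes 1.03% were called in this comparison, 280 of the 296 lower. TRADD and MAP3K14 missed the threshold when any 1 of the rabbits was left out, and RIPK1 without rabbit 2, 4 or 5. All 3 also missed it with the processed signal and with the deposited table. TRADD and MAP3K14 missed it with quantile normalization and normexp as well, and TRADD with the slide as a block and with trend and robust. No gene was called without rabbit 2, without rabbit 4 or with only the arrays compared, where 3175, 2102 and 3526 genes had an unadjusted p under 0.05. The list median was -0.27 against 0.06 over all genes, and 11 of 22 had an unadjusted p under 0.05. At T24 none was called by limma (5 at an unadjusted p under 0.05), beside 1.22% of all genes. After PMA-Ionomycin 5 of 22 rose and 3 fell at T4 and 7 rose and 7 fell at T24, 8 and 14 of 22 in all, beside 22.8% and 33.6% of all genes. CFLAR, an inhibitor of death receptor signalling, rose 5.77-fold and 1.57-fold, and the adaptor TRAF5 4.62-fold and 3.66-fold. BIRC3 (cIAP2) rose 2.94-fold and 1.65-fold. TRADD fell by 1.08 and 0.79, and RIPK1, MAP3K14 and TRAF3 fell at T24 by 1.34, 1.22 and 1.08. RNF31 (HOIP), of the linear ubiquitin ligase, fell by 1.51 at T4.

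Of 9 regulators of TNF mRNA and transcription 5 were found, and after PMA-Ionomycin 4 rose and none fell at T4, and 2 rose and 2 fell at T24, beside 13.5% higher and 9.35% lower, and 22.1% and 11.5%, of all genes. ZFP36 (tristetraprolin), which destabilises TNF mRNA, rose 2.45-fold at T4 and was 1.62-fold lower than mock at T24. ELAVL1 (HuR), an RNA stabilising protein, rose 1.60-fold and 2.29-fold, and LITAF fell 3.25-fold at T24. Of the enzymes and inhibitors of shedding 3 of 8 were found. After PMA-Ionomycin 2 of 3 were DE at T4 and 3 of 3 at T24, beside 22.8% and 33.6% of all genes. TIMP3, an inhibitor of the TNF converting enzyme, rose 2.51-fold at T4. It rose 2.28-fold at T24 from mock samples in which 2 of 4 arrays were well above background. ADAM10 fell by 0.43 and 0.72, and SPPL2A fell at T24 (log2 difference -0.90, adjusted p = 0.0322). No gene of these lists was called after LPS at either time (1 and 0 of 5 regulators and 0 and 0 of 3 shedding genes at an unadjusted p under 0.05). A list of 7 genes with TNFAIP symbols was set by name, and 5 were found. TNFAIP8L3 rose 3.42-fold after LPS at T24 (not DE with only the arrays compared) and fell 2.69-fold after PMA-Ionomycin at T24. TNFAIP8L2, an inhibitor of T cell and innate responses, fell 12.3-fold at T4 and 8.79-fold at T24 after PMA-Ionomycin. TNFAIP1, TNFAIP6 and TNFAIP8 were not called in any comparison with mock. Calls were 0 and 1 of 5 after LPS at T4 and T24, beside 1.03% and 1.22% of all genes. They were 1 and 2 of 5 after PMA-Ionomycin, beside 22.8% and 33.6%.

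The genes most like each member were sought among 6282 others with a symbol that passed the background mark on every array of a group, by Pearson's r over the 24 arrays. These arrays share 6 groups and 4 rabbits, and r is given as a description. TNF was closest to CCL4, an inflammatory chemokine (r = 0.892), FERMT2 (0.892) and PTGS2 (COX-2, 0.889). LTB was closest to RLA-DMB, an MHC class II chaperone gene (0.974), STK38 (0.974) and RESF1 (0.970). CD70 was closest to NDC1, a nuclear pore protein gene (0.968), and to the DNA replication genes RFC3 (0.965) and ORC6 (0.960). TNFSF13 was closest to RNF130 (0.983), PAPSS1 (0.972) and CROT (0.966), and TNFRSF21 to FRMD4B (0.922), CWF19L1 (0.891) and WSB1 (0.889). Between pairs of the 5 genes r ran from -0.845 (LTB and CD70) to 0.481 (TNF and TNFRSF21).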

How the data were processed

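The authors labelled RNA with Cy3, hybridised each sample to a custom Agilent array and read the scans with Feature Extraction 10.7.3.1. They deposited spot intensities (median, mean, local background and processed signal), not scaled between arrays, with flags, and a table of log2 values, which lies within 5e-09 of log2 median signals centred on each array's mean. Here the log2 median signal was centred per array on the median over its 61657 spots other than controls and probes were averaged per gene, following the methods. Spots marked as outliers were also left out. Of the probes, 11506 were named by RefSeq accession, 8929 by gene number, 66 by gene name, 460 by names the study lists for Ensembl genes and 78 as in the files, and 21050 kept an identifier. limma 3.58.1 in R 4.3.3 (lmFit, eBayes) estimated 6 group means from the 24 arrays together, with Benjamini-Hochberg adjustment over 28870 genes. Summaries were made in Python 3.11.15 with pandas 2.3.3 and numpy 2.4.6, and figures with matplotlib 3.10.9. Fitted steps were tested on simulated data.

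Samples are paired, since a rabbit number stands for 1 animal in all groups. As a check, deviations from the group means were correlated: the median r was 0.228 over 60 pairs of arrays from 1 animal and -0.0746 over 180 pairs from different animals and groups. The 3 slides each held arrays of all groups. Alternatives were quantile normalization, the 75th percentile of the processed signal as scale, normexp (offset 50) with quantile normalization, leaving out dim probes, the deposited log2 table, keeping outlier spots, fitting only the arrays compared, rabbit or slide as a block, trend and robust, single probes, and leaving out each rabbit. Members and gene lists were chosen with earlier results of these data known. Named genes are the members, receptors and close relatives of the members, and per list and comparison with mock up to 4 rises and 4 falls among DE genes whose direction all 4 rabbits shared and whose brighter group passed background on its 4 arrays, plus the 3 genes most like each member. The number of arrays limits the precision.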

Additional observations from a re-analysis of the deposited data

Results flagged for a closer look

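CD70 in LPS samples at T24 held a rabbit far from the others: rabbit 5 stood at 3.88 against 1.50 to 1.78, a gap of 0.886 of the range of the group. TNFRSF21 in mock samples at T24 did so as well, with rabbit 5 at 0.29 against -0.44 to -0.33 (0.844 of the range). Of 30 combinations of gene and group tested this way, chance would mark about 1 in 20.

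The effect of PMA-Ionomycin differed between T4 and T24, by the interaction test, for CD70 (3.46, adjusted p = 5.09e-06) and TNFSF13 (-2.41, adjusted p = 6.35e-05). Among other named ligands and receptors it did so for LTA (0.98, adjusted p = 0.00214), TNFSF14 (-0.95, adjusted p = 0.0416), TNFRSF12A (-0.88, adjusted p = 0.00716) and TNFRSF25 (0.80, adjusted p = 0.0323). The fit also gave 0.96 for TNFSF10 (adjusted p = 0.0404), but TNFSF10 was not well above background on any PMA-Ionomycin array of T4, so this number is not a measured size. The effect of LPS differed between the times for TNFRSF19 (1.29, adjusted p = 0.0364) and TNFRSF12A (0.90, adjusted p = 0.0469). Both missed the threshold when any 1 of the 4 rabbits was left out and with the processed signal, the deposited table, the slide as a block or only the arrays compared, and TNFRSF12A also missed it with trend and robust. Over all genes the LPS effect differed between the times for 562 genes, and for 7, 31, 184 and 403 without rabbit 2, 4, 5 and 1.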

How the results depend on the processing

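The PMA-Ionomycin differences of LTB and CD70 at both times and of TNF and TNFSF13 at T24 kept their direction and stayed DE under every alternative run. With the rabbit as a replicate block the TNF difference was DE after LPS at T4 (2.10, adjusted p = 0.0162) and T24 (2.50, adjusted p = 0.00106), as were its PMA-Ionomycin change with time (1.69, adjusted p = 0.0345), its difference between PMA-Ionomycin and LPS at T4 (-1.20, adjusted p = 0.0302) and its fall in PMA-Ionomycin samples from T4 to T24 (-1.55, adjusted p = 0.0043). Among the comparisons with mock, over time and between stimulations of the same time, the block changed no other call on the 5 genes. It gave 1 DE ligand or receptor after LPS at T4 and 5 at T24, where leaving out dim probes gave 4, fitting only the arrays compared 0, and leaving out a rabbit between 1 and 5 (1 without rabbit 1, 2 or 4, 5 without rabbit 5).

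TNF after LPS at T24 also passed the threshold with quantile normalization (2.65), normexp (2.63), the deposited table (2.51), without dim probes (2.50) and with 3 single probes (2.59, 2.62 and 2.66). TNFSF13 after PMA-Ionomycin at T4 passed with the processed signal (-1.10) and with only the arrays compared (-0.58), and ranged from -0.66 to -0.47 with a rabbit left out, passing without rabbit 5 (-0.62). After LPS at T24 it ranged from -1.04 to -0.58 and passed without rabbit 5. TNFRSF21 after LPS at T24 passed with the processed signal (1.46), with the slide as a block (0.88) and without rabbit 5, with a range of 0.60 to 1.06. After PMA-Ionomycin at T4 it ranged from 0.64 to 1.09 and missed the threshold without rabbit 4. Its PMA-Ionomycin change with time passed with normexp (-0.73), without dim probes (-0.81) and with 2 single probes (-0.91 and -1.17).

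Differences that were small in the fit reported changed sign, and none of them passed the threshold. For TNFRSF21 after PMA-Ionomycin at T24 these were the processed signal (-0.21), the deposited table (-0.0781), 2 single probes (-0.00734 and -0.22) and leaving out a rabbit (-0.0476 to 0.19). Between the times in LPS samples they were quantile normalization (-0.0773), the processed signal (-0.0672), normexp (-0.0438), a probe (-0.0308) and a rabbit left out (-0.0502 to 0.15), and between LPS T24 and mock T4 a rabbit left out (-0.30 to 0.12). For TNF between PMA-Ionomycin and LPS at T24 they were quantile normalization and normexp (both -0.61), the processed signal (-0.21), the deposited table (-0.0671), a probe (-0.000886) and a rabbit left out (-0.0728 to 0.32). For TNFSF13 between PMA-Ionomycin and LPS at T4 they were the processed signal (-0.21), the deposited table (-0.0782), 2 probes (-0.0689 and -0.0732) and a rabbit left out (-0.0652 to 0.0557). The change of the LPS effect with time ranged from -0.53 to 0.96 for TNF and from -0.0443 to 0.83 for CD70 with a rabbit left out, and was 0.15 for TNFSF13 with the processed signal. LTB after LPS at T24 ranged from -0.25 to 0.00444. The cause of these changes was not tested.

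Over all genes the number DE after LPS at T4 was 296, against 114 with quantile normalization, 105 with normexp, 8 with the processed signal, 71 with the deposited table, 114 with trend and robust, 0 with only the arrays compared by limma (3526 with p under 0.05 before adjustment) and 1231 with the block. Without a rabbit it ranged from 0 (without rabbit 2 or 4, with 3175 and 2102 before adjustment) to 119. At T24 it was 352, against 47 with only the arrays compared, 749 with the block and 85 to 611 without a rabbit. The processed signal moved the median over all genes from 0.03 to -0.26 after PMA-Ionomycin at T24 and from 0.05 to -0.16 at T4, and the DE genes from 6394 higher and 3317 lower to 4680 and 5421 at T24 and from 3885 and 2698 to 3296 and 3707 at T4.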
